A study of Sus scrofa with 599 samples.

Results

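The greater omentum (GOM), the fat apron that hangs from the stomach over the gut, was compared between adult female Bama pigs after weight gain (WG) and after weight loss (WL). All libraries labelled as GOM in these groups entered: 45 WG and 10 WL RNA-seq libraries of 236 in the series, and 46 WG and 10 WL Hi-C samples of 240. Both groups were 2 years old at the start and ate a high-fat diet for 22 weeks. The WG pigs were then killed. The WL pigs were 10 other animals of the same cohort that went on for 12 more weeks at 10% of the calories of the normal diet, so they were older, were collected later and no longer ate the high-fat diet. Weight loss, age, diet withdrawal and time of collection cannot be told apart in this comparison. All pigs were of 1 sex and 1 breed, and the tissue was taken after an overnight fast. Libraries of 9 pigs on the normal diet (NC) are given only as a reference level. Depth varied from 3337098 to 20910121 estimated counts on protein-coding genes (PCGs) in WG and from 10221110 to 19119707 in WL.

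White fat cells store fatty acids as triglyceride. They take fatty acids up from lipoproteins with lipoprotein lipase or make them from glucose and acetate by de novo lipogenesis, in which ATP citrate lyase and acetyl-CoA carboxylase supply the carbon, fatty acid synthase builds the chain, malic enzyme and the pentose phosphate pathway give NADPH, and elongases and desaturases finish it. The transcription factors ChREBP (MLXIPL) and SREBP-1c (SREBF1) turn this pathway on when carbohydrate and insulin are high. In fasting, catecholamines and natriuretic peptides release the stored fat by lipolysis.

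Expression is given in TPM, which is scaled to gene length and to the library, and a gene was called a differentially expressed gene (DEG) where the fold change passed 1.5 and the edgeR adjusted p was below 0.05. Of 13906 PCGs tested, 731 (5.26%) were called, 354 (2.55%) higher and 377 (2.71%) lower in WL, and the median log2 fold change over all genes was -0.04. For 0 of all 731 DEGs did the TPM ranges of the groups lie wholly apart. In these bulk samples, fewer cells of a type and less RNA per cell cannot be told apart.

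Sets of libraries stood apart within the groups. The sum over the 13 mitochondria-encoded genes split the WG libraries at 50000 TPM into 18 and 27. The lowest of the 18 was at 130000 TPM and the highest of the 27 at 39710 TPM, and the highest WL library was at 26190 TPM. In MAD, RAD and ULB, the other depots, 32 of 36, 36 of 39 and 35 of 38 WG replicate numbers shared with GOM fell on the same side of 50000 TPM. With those 18 libraries left out, 630 genes were higher and 536 lower in WL, 1166 in all, 509 of which were among the 731. In WL, replicates 2, 9 and 10 held the most ALB and replicates 5, 6 and 8 the most UPK1B. Without the latter 3 libraries 224 genes were called, 131 higher and 93 lower, and 205 of them were among the 731. PCGs took 70.8 to 91.4% of all TPM in WL (under 90% in 8 of 10) and 76.1 to 96.4% in WG (under 90% in 4 of 45). With that share as a covariate 457 genes were called, 145 higher and 312 lower, and with only the libraries at 90% or more, which left 2 WL libraries, 27 were called.

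Most genes of de novo lipogenesis fell in WL GOM. Of its 18 genes, 13 were lower and 0 higher, with a median log2 fold change of -1.14 beside -0.04 over all genes, and DESeq2 called 15 lower and 0 higher. The summed level of the 18 genes ran from 2014 to 16792 TPM in WG (median 7210) and from 937 to 3276 TPM in WL (median 1785), while the NC median was 2332 TPM. The PCG share of the NC libraries had a median of 79.0% and was under 90% in 7 of 9. They held 97001 to 357690 TPM of mitochondria-encoded RNA, and their TPM were not adjusted for this. The count was again 13 with the PCG share as a covariate and without the 18 WG libraries rich in mitochondria-encoded RNA. It was 12 without WL replicates 2, 9 and 10 and 8 without WL replicates 5, 6 and 8.

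FASN, which encodes fatty acid synthase, lies at chr12:922405-937560 of Sscrofa11.1. It was at 66.8 to 6563 TPM in WG with a median of 899 TPM, and at 7.90 to 104 TPM in WL with a median of 32.5 TPM. All 10 WL libraries were below the WG lower quartile, although the highest WL value passed the lowest WG value. The log2 fold change was -4.93 ± 0.56 (SE, adjusted p = 1.2e-08), the largest fall among the named genes. SCD (chr14:111461560-111478033), the desaturase that makes oleate, fell from a median of 1421 TPM (89.3 to 7157) to 148 TPM (11.06 to 522), a log2 change of -3.31 ± 0.59. ME1, malic enzyme, fell from a median of 297 TPM (71.0 to 1138) to 33.6 TPM (16.3 to 99.8), a log2 change of -3.07 ± 0.33 with the lowest adjusted p of the pathway, 4.3e-09. Both had all 10 WL libraries under the WG lower quartile. ACLY, ATP citrate lyase, fell from a median of 257 TPM (56.01 to 993) to 50.5 TPM (38.2 to 73.8), a log2 change of -2.61 ± 0.40. ACACA, acetyl-CoA carboxylase, fell less, from a median of 294 TPM (36.8 to 696) to 111 TPM (60.0 to 208) and by 1.21 on the log2 scale. The falls were in the order FASN, SCD, ME1, ACLY and ACACA, with SCD and ME1, and ME1 and ACLY, closer than their summed standard errors.

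The finishing enzymes and cofactors fell as well. ELOVL6, which elongates palmitate, fell by 1.56 on the log2 scale, from a median of 416 to 148 TPM, and ELOVL5 fell by 1.07, from 604 to 297 TPM. ACSS2, which activates acetate, fell by 1.25, and PGD, an NADPH source of the pentose phosphate pathway, by 0.71. THRSP and MID1IP1, the Spot 14 proteins that accompany lipogenesis, fell by 1.47 and 1.01. PNPLA3, an acylglycerol hydrolase regulated with this pathway, fell by 1.01. Among the members that were not called were SREBF1, with a log2 difference of -0.77 (adjusted p = 0.176), the citrate carrier SLC25A1, and the polyunsaturated fatty acid desaturases FADS1 (0.27) and FADS2 (0.13).

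MLXIPL fell by 2.29 ± 0.45 on the log2 scale (adjusted p = 0.00046). Its WG values did not overlap between the sets of WG libraries, at 28.6 to 105 TPM in the 18 rich in mitochondria-encoded RNA and 4.13 to 27.3 TPM in the other 27, against 2.60 to 10.3 TPM in WL. Against those 27 alone the fall was 1.13 on the log2 scale (adjusted p = 0.0024). FASN fell by 4.74, SCD by 3.55, ME1 by 3.07 and ACLY by 2.77 in the same comparison, all close to their values over all WG libraries.

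**Figure D1:**
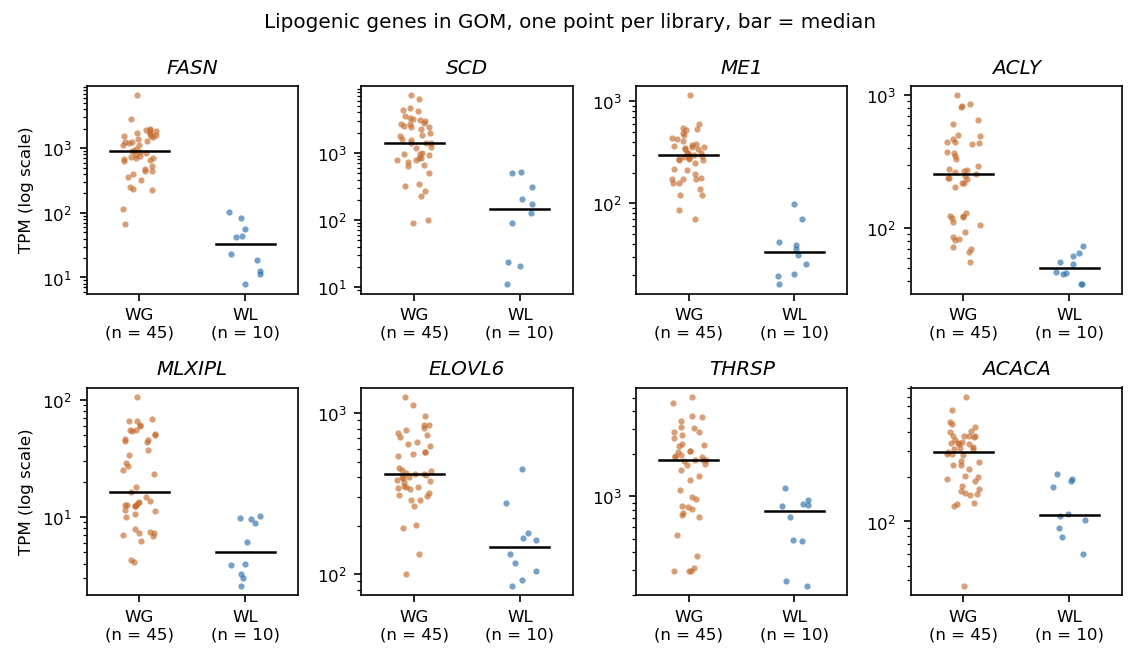
TPM on a log axis of 8 lipogenic genes in GOM, with a point for each library (45 WG, 10 WL) and a bar at the median. For FASN the WL points lie at 7.90 to 104 TPM against a WG median of 899 TPM, and the groups overlap at their edges in every panel.

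Promoter letters of lipogenic genes are shown for FASN, the gene that fell most, and for ELOVL5 and MID1IP1, the 2 of the 13 called genes with an E-box, the element CACGTG. Each run is the 250 bases before the annotated gene start, read from the RefSeq genome of Sscrofa11.1 on the gene's own strand, and capitals mark the E-box.
FASN, chr12:922155-922404, plus strand: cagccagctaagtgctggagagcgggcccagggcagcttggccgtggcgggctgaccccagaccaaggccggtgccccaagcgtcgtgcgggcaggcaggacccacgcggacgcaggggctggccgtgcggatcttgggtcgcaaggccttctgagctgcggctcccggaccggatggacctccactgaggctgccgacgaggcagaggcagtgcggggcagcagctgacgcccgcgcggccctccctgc
ELOVL5, chr7:46932946-46933195, minus strand: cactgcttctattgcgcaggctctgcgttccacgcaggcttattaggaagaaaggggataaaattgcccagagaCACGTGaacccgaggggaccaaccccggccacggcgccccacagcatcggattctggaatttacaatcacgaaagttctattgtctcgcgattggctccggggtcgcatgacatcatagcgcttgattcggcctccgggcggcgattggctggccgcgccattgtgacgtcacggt
MID1IP1, chrX:34763110-34763359, plus strand: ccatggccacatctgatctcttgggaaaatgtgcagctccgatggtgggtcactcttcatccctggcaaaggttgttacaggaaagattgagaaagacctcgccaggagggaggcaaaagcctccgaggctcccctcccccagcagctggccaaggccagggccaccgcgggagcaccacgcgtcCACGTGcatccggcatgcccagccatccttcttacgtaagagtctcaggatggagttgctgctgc
The E-box lay 176 bases before the start of ELOVL5 and 65 bases before that of MID1IP1. On either strand it was found in 6.97% of all 13566 promoters read. The SREBP element core TCACCCC was in 4.86% of all promoters and in 0 of the 13 lipogenic genes that fell, and the FOXO letters TGTTTAC were in 2.07% and in 0 of the 13. The search was for exact letters in this window only.

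Of 31 genes that synthesize, take up or coat triglyceride, 2 were called, beside 5.26% of all genes tested. DGAT2, which adds the last acyl chain, was the 1 of 10 triglyceride synthesis genes called, falling by 1.51 ± 0.40 from a median of 215 to 57.4 TPM. LPL, lipoprotein lipase, was the 1 of 13 uptake genes called. It was at 220 to 2281 TPM in WG (median 1273) and at 258 to 962 TPM in WL (median 590), with all 10 WL libraries below the WG lower quartile, and fell by 1.17 ± 0.20 (adjusted p = 8.5e-05). Of the 8 lipid droplet coat genes 0 were called by edgeR or DESeq2, and 0 had an unadjusted p below 0.05. The median of PLIN1, the droplet gatekeeper, was 626 TPM in WG and 485 TPM in WL.

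In lipolysis, 4 of 15 genes rose and 1 fell, with a median log2 change of -0.04, beside 5.26% of all genes called. ADRB1 (chr14:124400330-124401739), the beta-1 adrenergic receptor, was at 0.80 to 14.97 TPM in WG (median 2.89) and at 4.35 to 24.7 TPM in WL (median 8.36), and all 10 WL libraries were above the WG upper quartile. Its log2 rise was 1.51 ± 0.26 (adjusted p = 8.3e-05). NPR3, the natriuretic peptide clearance receptor, rose by 1.14 ± 0.21 from a median of 37.7 TPM (19.1 to 115) to 92.7 TPM (56.6 to 161). HILPDA, an inhibitor of the lipase ATGL, rose by 0.99, from a median of 42.1 to 94.4 TPM, and AQP3, a glycerol channel, by 0.97, from 76.3 to 134 TPM. PDE3B, the phosphodiesterase through which insulin restrains lipolysis, fell by 0.87, from 74.0 to 45.8 TPM. The lipases themselves were not called, PNPLA2 at -0.68 (adjusted p = 0.278) and LIPE at -0.30 (adjusted p = 0.336). CPT1A, which admits fatty acids to mitochondria, was the 1 of 22 fatty acid oxidation genes called, rising by 0.59 from a median of 45.5 to 72.5 TPM with 10 of 10 WL libraries above the WG upper quartile. DESeq2 did not call it.

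Of 23 cholesterol genes, LSS, IDI1 and SC5D, 3 enzymes of sterol synthesis, fell by 1.01, 0.91 and 0.66, while TM7SF2, a sterol reductase, rose by 1.05 at a low level, from a median of 1.62 to 3.16 TPM. In glucose handling, SLC2A4, the insulin-regulated glucose transporter GLUT4, was the 1 of 17 insulin signalling genes called and fell by 1.00, from a median of 33.8 to 17.3 TPM. GYS2, a glycogen synthase, was at 13.5 to 190 TPM in WG (median 57.3) and at 1.06 to 46.5 TPM in WL (median 6.69), and fell by 2.61 ± 0.41. PFKFB1, which sets the level of fructose 2,6-bisphosphate, fell by 2.31, from a median of 5.12 to 0.72 TPM.

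**Figure D2:**
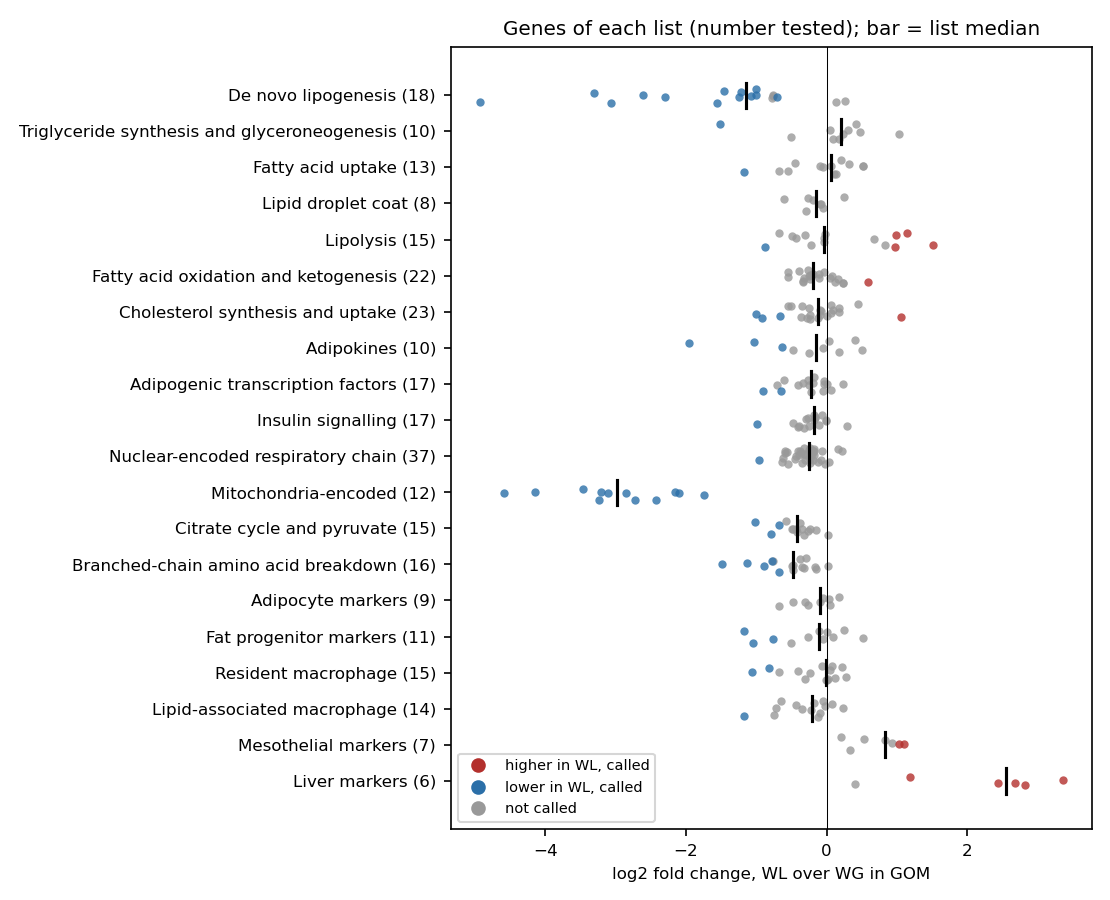
Log2 fold change of WL over WG in GOM for the tested genes of 20 lists, with the number tested in brackets and a point for each gene, red where called higher, blue where called lower and grey where not called. The lipogenic points reach -4.93 (FASN), the mitochondria-encoded genes are all blue, and the adipocyte markers are all grey.

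The other genes with the largest falls had varied roles. CHAC1, a glutathione-degrading enzyme of the amino acid stress response, fell by 4.01 ± 0.55 from a median of 11.9 TPM (1.54 to 48.7) to 0.84 TPM (0.49 to 2.43). P2RX5, an ATP-gated channel used as a brown fat surface marker, fell by 2.90 from a median of 13.2 to 2.33 TPM, and no WL library passed 2.97 TPM. ESM1, an endothelial secreted proteoglycan, fell by 2.34, CKB, brain-type creatine kinase, by 1.92, and KLHL31 by 1.96. TMEM25 and CADM2, a cell adhesion molecule, fell by 2.47 and 2.19. AGT (chr14:59643030-59656835), angiotensinogen, which fat secretes, was at 115 to 701 TPM in WG (median 289) and 40.7 to 184 TPM in WL (median 82.2), and fell by 1.95 ± 0.26 (adjusted p = 8e-07). Among adipokines NAMPT also fell by 0.63 on the log2 scale, and 0 of 10 were higher. Leptin (LEP) was not called, at a median of 375 TPM in WG and 265 TPM in WL, nor was adiponectin (ADIPOQ), at 2264 and 2920 TPM.

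Among DEGs whose interquartile ranges lay apart and whose mean reached 5 TPM in the higher group, the largest rise was that of ANO4, an anoctamin membrane protein, with a median of 0.11 TPM in WG (0 to 4.11) and 3.60 TPM in WL (0.11 to 17.9), a log2 rise of 2.86 ± 0.60. PENK, proenkephalin, was at 6.08 to 120 TPM in WG (median 23) and at 32.3 to 212 TPM in WL (median 102.2), and rose by 1.92 ± 0.28 with all 10 WL libraries above the WG upper quartile. GNAZ, a G protein alpha subunit that inhibits adenylyl cyclase, rose by 1.40 ± 0.17 with the lowest adjusted p of the rises, 6.6e-08, from a median of 5.06 TPM (2.32 to 17.03) to 14.2 TPM (9.23 to 22.3). All 10 WL libraries of GNAZ were likewise above the WG upper quartile. WNT6, a Wnt ligand, rose from a median of 0.95 to 3.78 TPM, TTC9B from 0.95 to 4.61 TPM, ANGPT4, an angiopoietin, from 5.96 to 15.9 TPM, HES6 from 15.6 to 37.2 TPM and GFRA1, a GDNF receptor, from 7.01 to 16.6 TPM. FCN2, a ficolin of innate defence, rose by 1.18 from a median of 27 to 64.7 TPM. GFRA1 and HES6 were not called without WL replicates 5, 6 and 8. HES6 and FCN2 were not called with the PCG share as a covariate or against the 27 WG libraries, and FCN2 was also not called without WL replicates 2, 9 and 10. Left out 1 WL library at a time, the 30 genes with the largest changes kept their calls except FCN2, lost in 1 of 10 fits, and SERPINE3, lost in 3 of 10.

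Every tested mitochondria-encoded gene, 12 of 12, was lower in WL, with a median log2 change of -2.98. The sum was at 9634 to 277550 TPM in WG (median 28683), at 5311 to 26189 TPM in WL (median 14359) and at 97001 to 357690 TPM in NC. This count moved with the sets of WG libraries. Against the 27 WG libraries with the lower sums, 1 of 12 was lower, COX1, at a median of 9992 TPM in those 27 and 6351 TPM in WL, and the list's median was -0.23. With the PCG share as a covariate 0 of 12 were called. Among 37 nuclear-encoded respiratory chain genes, 1 was lower, COX5A, with a median over the list of -0.24, and 14 were lower against the 27 WG libraries. The pyruvate dehydrogenase subunits PDHB and PDHA1 fell by 1.02 and 0.80. In the breakdown of branched-chain amino acids, a carbon source for lipogenesis in fat cells, 5 of 16 genes were lower and 0 higher, MCCC2 by 1.48, AUH by 1.14, ALDH6A1 by 0.89, ACADSB by 0.77 and BCKDHB by 0.68. Against the 27 WG libraries 8 of the 16 were lower.

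Beside 5.26% of all genes tested, 2 of 17 adipogenic factors were called. PPARG, the master regulator of fat cell formation, fell by 0.65 ± 0.15, from a median of 141 TPM (77.2 to 248) to 89.6 TPM (47.9 to 139), and KLF9, another of them, by 0.90. FKBP5, a glucocorticoid receptor target, fell by 1.33 from a median of 205 to 84.2 TPM. With KLF9 it made 2 of 11 glucocorticoid genes called, with a list median of -0.03. The clock output gene CIART fell by 0.87 as the 1 of 18 clock genes called. PHGDH, the first enzyme of serine synthesis, rose by 0.90, and was not called without WL replicates 2, 9 and 10. The ubiquitin ligase FBXO32 fell by 0.84 over all WG libraries and by 0.53 against the 27 (adjusted p = 0.114). CTSD, a lysosomal protease, was the 1 of 21 autophagy and lysosome genes called, at -0.87. IER3 was the 1 of 15 immediate early genes called over all WG libraries, rising by 1.01, and 8 of 15 were higher against the 27.

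The 9 adipocyte markers gave 0 calls with edgeR and DESeq2 and 0 unadjusted p below 0.05, and their sum was at 1697 to 10314 TPM in WG (median 6203) and at 3145 to 10511 TPM in WL (median 5849). The label of the tissue as fat thus fitted its defining markers in both groups. Over the 11 lists with no call by edgeR, which include cytokines, interferon-stimulated genes, T and NK cells, B cells, MHC class II and endothelial markers, 8 genes had an unadjusted p below 0.05 and DESeq2 called 1. The 15 resident macrophage genes had a median log2 change of -0.01, with 7 positive and 8 negative. Their sum had a median of 1817 TPM in WG and 1989 TPM in WL. Of the 15, CD163, the haemoglobin scavenger receptor, and F13A1 fell, by 1.06 and 0.82, beside 5.26% of all genes called. Neither was called with the PCG share as a covariate, without WL replicates 2, 9 and 10 or without WL replicates 5, 6 and 8. CD163 was at 7.70 to 577 TPM in WG (median 256) and at 70.5 to 210 TPM in WL (median 128). KIT, the mast cell receptor, rose by 0.80 as the 1 of 6 neutrophil and mast cell genes called. The median of that list was -0.28, and its sum had a median of 353 TPM in WG and 188 TPM in WL.

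Of 10 mural cell markers RGS5, the pericyte gene, fell by 1.84 ± 0.25 (adjusted p = 1.1e-06), from a median of 77.3 TPM (9.17 to 167) to 23.7 TPM (7.49 to 44.8), and all 10 WL libraries were below the WG lower quartile. The median of the whole mural list was -0.17. Among fat progenitor markers PI16, F3 and LUM fell by 1.18, 1.05 and 0.76, 3 of 11. In the matrix, COL1A1, the fibrillar collagen chain, fell by 1.98, SFRP2 by 1.63, NID2 by 0.73 and COL4A1 by 0.66, while COL4A4 rose by 1.83 at a low level (median 0.33 to 0.98 TPM). COL1A1 also moved with the WG sets, at a median of 266 TPM in the 18 and 56.2 TPM in the 27, against 36.2 TPM in WL. Against the 27 WG libraries COL1A1 was at -0.74 (adjusted p = 0.055), SFRP2 at -0.69 (0.158), NID2 at -0.20 (0.45), COL4A1 at -0.21 (0.354) and LUM at -0.50 (0.081), none of them called, whereas COL4A4, RGS5, PI16 and F3 were. CCNB2, a mitotic cyclin, was the 1 of 15 proliferation genes lower, by 1.06, beside 5.26% of all genes called. None of the 15 was called with the PCG share as a covariate or without the WL libraries with the most ALB or the most UPK1B. Against the 27 WG libraries 2 of the 15 were lower.

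Genes typical of liver and mesothelium were higher in WL, and each set was highest in a few WL libraries. Of 6 liver genes tested, 5 rose, ALB (3.36), FGB (2.83), TTR (2.67), FGG (2.44) and SERPINA1 (1.19). ALB, albumin, was at 6473 TPM in WL replicate 10, at 440 TPM in replicate 2 and at 408 TPM in replicate 9, and at 1.503 to 13.99 TPM in the other 7. In WG it ran from 0.17 to 824 TPM with a median of 7.93 TPM. Without those 3 WL libraries 0 of the 6 liver genes were called and ALB was at -3.25 (adjusted p = 0.128). Those libraries were picked for having the most ALB, so a loss of these calls was partly built in. TF, transferrin, also highest in replicate 10 at 660 TPM, rose by 2.53 over all WL libraries and was at 0.84 (adjusted p = 0.417) without the 3. The source of these transcripts was not tested.

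UPK1B and BNC1, markers of the mesothelium that covers the omentum, rose by 1.11 and 1.03, 2 of 7 tested, and all 7 had positive log2 differences with a median of 0.82. The summed mesothelial level was 131 to 1047 TPM in WG (median 328) and 211 to 1084 TPM in WL (median 529). UPK1B was at 122, 171 and 164 TPM in WL replicates 5, 6 and 8 and lower in the other 7, and those libraries also had the most BNC1. TMEM98, a membrane protein, GNMT, glycine N-methyltransferase, and SERPINE3 were highest in the same libraries. TMEM98 was at 99.4, 101 and 168 TPM there against a WG median of 25.8 TPM (5.44 to 67.4). Over all WL libraries TMEM98 rose by 1.31, GNMT by 1.81 and SERPINE3 by 1.13. Without replicates 5, 6 and 8 they were at 0.63, 1.02 and 0.38 and not called, and 0 of 7 mesothelial genes were called. Those replicates were picked for having the most UPK1B, so a loss of these calls was partly built in. The part of mesothelial content in these rises was not tested.

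**Figure D3:**
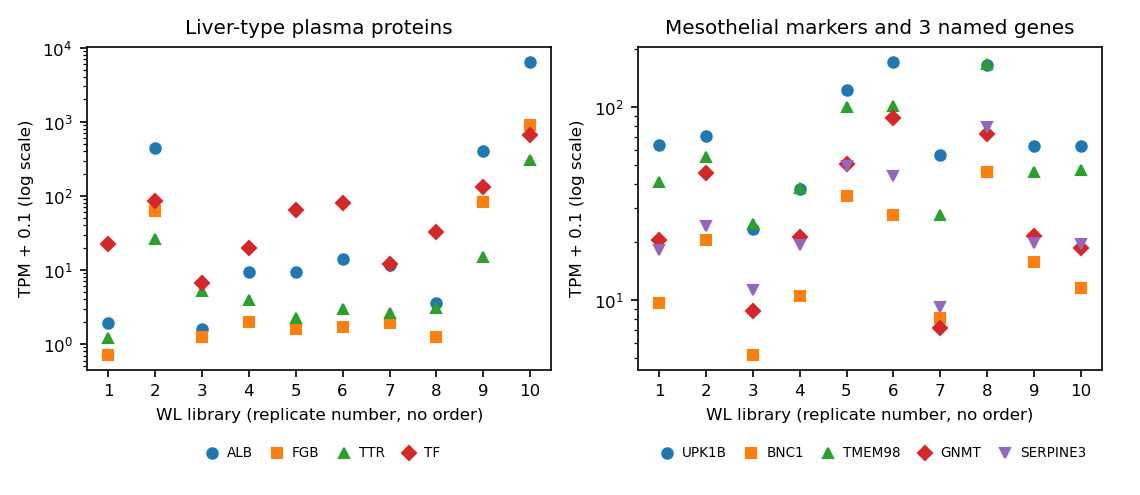
TPM + 0.1 on log axes in each of the 10 WL libraries, for liver-type plasma proteins (left) and for mesothelial markers with TMEM98, GNMT and SERPINE3 (right). ALB stands at 6473 TPM in replicate 10, and UPK1B passes 100 TPM in replicates 5, 6 and 8.

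Whether the changes were particular to GOM was tested as the difference between its WL minus WG change and the mean change of the mesenteric (MAD), retroperitoneal (RAD) and subcutaneous backfat (ULB) depots. Of 13906 genes 59 differed (0.424%), 54 more positive and 5 more negative in GOM, and 28 of the 731 DEGs were among them. The depots came from the same carcasses, and with the animal as a block 151 genes differed, 122 more positive and 29 more negative, 44 of them DEGs. Of the 18 lipogenic genes 0 differed with or without the block. FASN had log2 changes of -5.56 (MAD), -5.32 (RAD), -3.97 (ULB) and -4.94 (GOM), with a difference of 0.01 ± 0.48 (SE). TMEM98 was more positive in GOM by 1.19 ± 0.23 (adjusted p = 0.0011), at 1.33 in GOM and 0.39, 0.19 and -0.16 in the other depots. GFRA3, a GDNF family receptor, differed by 1.21, and both genes also differed with the block. The liver gene TTR differed by 2.32, but by 1.16 with the block (adjusted p = 0.649) and by -0.03 without WL replicate 10 in GOM. UPK1B and BNC1 had differences of 1.52 and 2.20 with adjusted p of 0.06 and 0.078, and of 0.0536 and 0.109 with the block.

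Chromatin compartments were described by the A-B index of 113298 bins of 20 kb on the 18 autosomes. A positive index marks the open, gene-rich A compartment and a negative index the closed B compartment. A bin was A/B variable when over 80% of the samples of both groups shared its compartment, the index differed by over 0.75 and the limma adjusted p was below 0.05. There were 2414 variable bins (2.13%), 1569 higher (1.38%) and 845 lower (0.746%) in WL. Switches of compartment in over 80% of samples were rare, 9 bins from B to A and 2 from A to B (0.00971%), with no start of a gene with a symbol in any. The share of samples in A rose from 30% or less to 70% or more in 254 bins (0.224%) and fell the other way in 62 (0.0547%).

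Of the bins higher in WL 90.6% were in A, and of those lower 97.9% were in B, so positive bins became more positive and negative bins more negative. The spread of the index over bins moved with this. Its SD per sample was 3.09 ± 0.13 (SD, n = 46) in WG and 3.26 ± 0.09 (SD, n = 10) in WL. The median difference was 0.18 in bins that were A in WG and -0.14 in those that were B. After quantile normalization, which gives every sample the same spread, these were -0.01 and -0.01, and 759 bins were variable, 512 higher and 247 lower. Of these, 366 and 158 were also variable in the index as deposited.

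**Figure D4:**
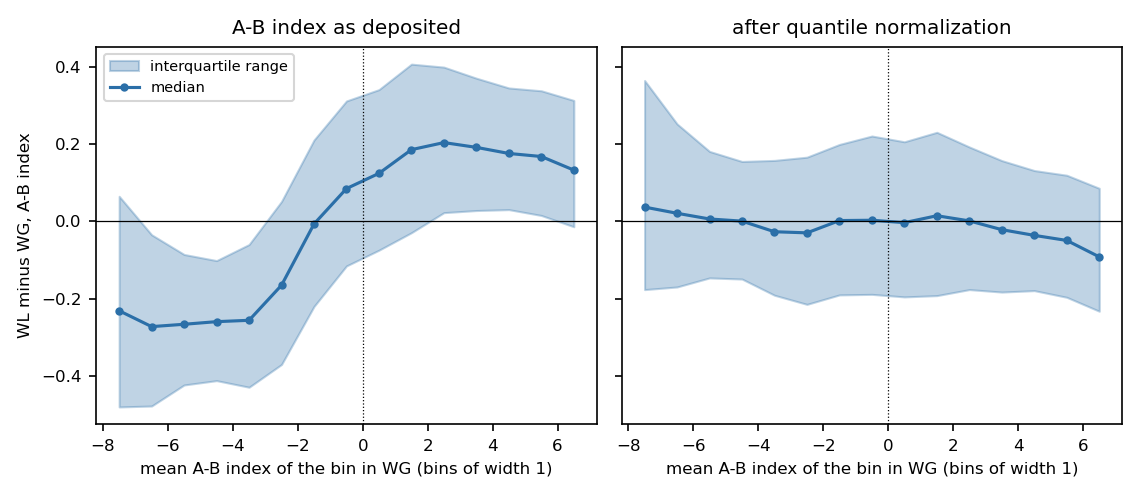
Difference of the A-B index, WL minus WG, against the mean index of the bin in WG, in steps of 1 with at least 200 bins, as a median line with its interquartile band, for the index as deposited (left) and after quantile normalization (right). The line slopes up on the left, with medians of 0.18 in A and -0.14 in B bins, and lies near 0 on the right.

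Called bins within 40 kb of each other were joined. The region with the most variable bins higher in WL, chr10:40960001-42140000, held 47 of them and the starts of SVIL, ZEB1 and ZNF438. Its mean index was 1.43 in WG and 2.42 in WL, and the sample means overlapped, at -0.73 to 2.98 in WG and 1.08 to 3.35 in WL. The region with the largest rise among those named, chr10:64760001-65400000, with PFKFB3, a glycolytic regulator, and IL2RA, went from 1.39 to 3.04. None of the tested genes in the 5 named regions that rose was a DEG. The lower region with the most, chr8:93700001-94780000, had 38 variable bins and no gene start with a symbol. The named region least changed by quantile normalization was chr2:11080001-11660000, which kept 20 of its 25 variable bins and holds the MS4A family, with the B cell gene MS4A1 and the macrophage gene MS4A7. Its mean index fell from -2.61 (-3.31 to -1.66) to -3.65 (-4.26 to -3.10).

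Few DEGs lay in bins with a changed index. Of the tested genes with an autosomal start 1.69% lay in a variable bin, against 6 of 270 higher DEGs and 7 of 278 lower DEGs. The median index difference was 0.20 at higher DEGs, 0.11 at lower DEGs and 0.15 at genes that were not called, and after quantile normalization it was 0.03, -0.06 and -0.04. The bin of FASN was not variable, with an index of 5.18 ± 0.37 (SD, n = 46) in WG and 5.20 ± 0.29 (SD, n = 10) in WL. Genes starting in bins that fell had a median log2 expression change of -0.55 over 12 tested, 3 of them called and all 3 lower. Genes in bins that rose had a median of -0.04 over 166, with 6 higher and 4 lower. Those in bins that were not variable had a median of -0.03 over 10362, with 264 higher and 271 lower.

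The 3 DEGs in bins that fell were MS4A7, SAMSN1 and CD163. MS4A7, a macrophage surface protein, had an index of -2.50 ± 0.68 (SD, n = 46) in WG and -3.55 ± 0.66 (SD, n = 10) in WL, and fell from a median of 22.3 to 12.8 TPM, at the edge of the limit (adjusted p = 0.049). SAMSN1, an adaptor of B and myeloid cells, had its index fall from 2.005 to 1.10 and its median TPM from 34.6 to 18.7. CD163 had its index fall from -4.47 to -5.36. After quantile normalization the bins of MS4A7 and SAMSN1 stayed variable and that of CD163 did not. Left out 1 WL library at a time, MS4A7 was called in 2 of 10 fits, SAMSN1 in 5 and CD163 in all 10. The 10 DEGs in bins that rose went in both directions. APLP1, LRP4, CCDC85C, SLC4A3, SDK1 and GFRA3 were higher in WL, and HSPB6, ARHGAP33, ETV2 and SYNPO2 were lower. HSPB6, a small heat shock protein, had its index rise from 4.86 to 5.84, while its expression moved with the WG sets, at a median of 342 TPM in the 18 and 27.8 TPM in the 27, against 28.2 TPM in WL. Against those 27 HSPB6 was at -0.75 (adjusted p = 0.364), ARHGAP33 at -0.25 (0.516, from -1.32 over all WG libraries) and SYNPO2 at -0.31 (0.185, from -0.67). Neither with the PCG share as a covariate nor without WL replicates 5, 6 and 8 was any of the 13 genes called.

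**Figure D5:**
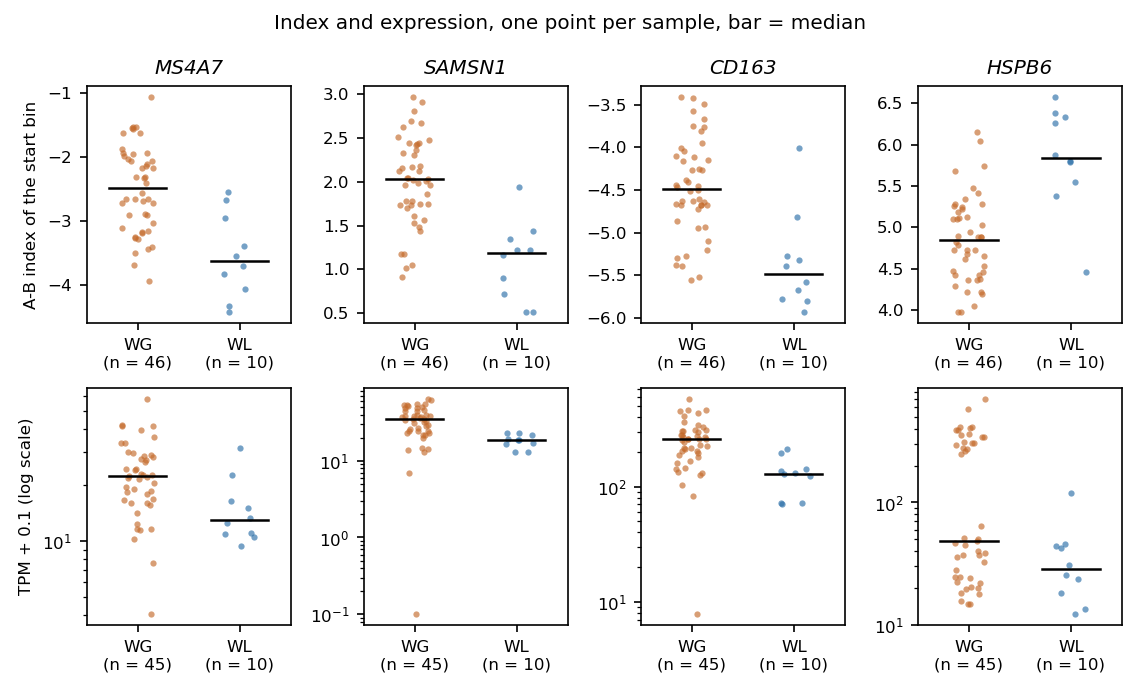
A-B index of the start bin (top, 46 WG and 10 WL samples) and TPM + 0.1 on a log axis (bottom, 45 WG and 10 WL libraries) for MS4A7, SAMSN1, CD163 and HSPB6, with a point for each sample and a bar at the median. The index is lower in WL for the first 3 genes and higher for HSPB6, and the groups overlap in every panel.

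H3K27ac, a mark of active promoters and enhancers, was deposited only as regions of pooled samples, 1 table for WL and 3 for subgroups of WG that the study formed from cell composition estimated from expression, so there is no replicate and no test. The paper made the regions with ROSE, set to 2000 bases so as to exclude promoters, so signal at gene starts may be missing. The median ratio of immunoprecipitated to input signal over regions was 1.92 in WL and 1.57, 1.59 and 1.55 in the WG tables. Over the whole length of the regions that reached within 10 kb of FASN, the ratio was 4.05 in WL and 2.37, 2.73 and 2.46 in WG. That was 2.11 times its table's median in WL and 1.51, 1.71 and 1.59 times in WG. These regions covered 93.0 kb in WL and 26.2, 92.8 and 96.4 kb in WG, so the ratio is not that of the gene alone. For ELOVL6 the ratio was 3.49 in WL and 1.90 to 2.19 in WG, for ACLY 2.96 and 2.05 to 2.18, and for SCD 2.30 and 1.75 to 1.85. Regions were called separately in each table and differed in length, at SCD 10.2 kb in WL against 24 to 41.2 kb in WG, and at ELOVL6 18.2 kb against 26.2 to 31.8 kb. Of the 18 lipogenic genes 15 had a region within 10 kb in all 4 tables, and 14 of them had a higher ratio in the WL table than in each WG table. Set over its table's median the ratio was higher in WL for 12 of the 15, the exceptions being ACACA (1.16 in WL against 0.82 to 1.25), FADS1 (1.53 against 1.35 to 1.88) and SLC25A1 (1.70 against 1.41 to 1.93). For SCD it was 1.19 against 1.13 to 1.18. Of the 13 lipogenic genes with lower RNA in WL, 12 had regions in all tables, and the ratio over the median was higher in WL for 11. Outside this list it was also higher in WL for AGT, CHAC1 and HSPB6, which fell, and for TMEM98, GNMT, WNT6 and GNAZ, which rose. It was not higher than in every WG table for GYS2, P2RX5 and CADM2, which fell, or for PENK, NPR3 and HES6, which rose. The share over all genes was not counted, so whether the higher ratio was particular to lipogenic genes was not tested. By the file headers the WL table came from another ROSE run than the WG tables, and the part of that run or of the higher ratio over all WL regions was not tested. No region reached within 10 kb of ADRB1 in any table. With promoters excluded, this does not show whether its start was acetylated.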

How the data were processed

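The authors pseudo-aligned stranded, rRNA-depleted RNA-seq reads with kallisto 0.43.0 (release 102 annotation of Sscrofa11.1) and summed transcripts per gene with tximport. The deposited expected counts and TPM values of 21280 PCGs were used, of which 14821 IDs matched a gene symbol. The deposited A-B index, a score per 20-kb bin, was made by the authors from Hi-C read pairs of mapping quality 30 or more, balanced and quantile normalized between samples. The deposited H3K27ac signal is the coverage of ROSE regions (BWA 0.7.15, SAMtools 1.3.1, SICER) pooled per group. Tables also hold 9 columns that match no label and were not used.

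Counts were rounded and tested with edgeR 4.0.16 (TMM, quasi-likelihood, two-sided, Benjamini-Hochberg) on PCGs that passed 0.5 TPM in 80% or more of the libraries of WG or of WL, and index bins with limma 3.58.1 in R 4.3.3. Both tests were first checked on simulated data. DESeq2 1.42.0 was an alternative. Named genes were the 15 largest rises and 15 largest falls among DEGs with a mean of at least 5 TPM in the higher group and interquartile ranges apart, members of the gene lists, and DEGs in variable bins. Members and lists were chosen with earlier results of these data known. Nothing in the labels says that samples of a group share an animal. The index comes without contact counts per bin, so its precision is known only from the spread between samples. Gene starts and promoters were read from the RefSeq annotation and genome of Sscrofa11.1, whose 18 autosomes end within 1 bin of the index table. A few list members are not reported here.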

Additional observations from a re-analysis of the deposited data

Results flagged for a closer look

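In 30 of the 110 genes named for expression, the highest of the 10 WL libraries lay far from the other 9 by Dixon's test. For normally distributed values chance gives an outlier at either end in about 1 of 20 groups. The test was run on TPM without a log scale, for which that rate need not hold. Genes of the same library are not independent, so the flags gather in a few libraries. All are single high libraries.

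WL replicate 10 was the high library for 14 genes. For the plasma proteins made by liver these were ALB at 6473 TPM, FGB at 904.9 TPM, FGG at 715.1 TPM, TF at 659.6 TPM, TTR at 304.4 TPM and SERPINA1 at 11.26 TPM. For lipid and sterol genes they were ELOVL5 at 644.3 TPM, IDI1 at 49.12 TPM, FADS2 at 38.02 TPM, FADS1 at 28.34 TPM and SC5D at 27.59 TPM. The same library was highest for the glycogen and glycolytic genes GYS2 at 46.47 TPM and PFKFB1 at 5.032 TPM, and for the serine enzyme PHGDH at 12.37 TPM.

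WL replicate 4 was the high library for ELOVL6 at 448.4 TPM, PNPLA2 at 255.7 TPM, SFRP2 at 121.1 TPM, HSPB6 at 120.3 TPM, ACSS2 at 77.96 TPM, KLHL31 at 59.47 TPM and SREBF1 at 31.1 TPM. WL replicate 3 was high for NAMPT at 262.4 TPM, F3 at 238.9 TPM, ADRB1 at 24.69 TPM and WNT6 at 19.29 TPM. WL replicate 8 was high for TMEM98 at 167.6 TPM and CPT1A at 113.5 TPM, replicate 5 for TTC9B at 13.15 TPM, replicate 9 for COL4A4 at 3.707 TPM and replicate 2 for CHAC1 at 2.426 TPM.

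The change from WG to WL differed between GOM and the mean of MAD, RAD and ULB for 3 named genes, by the edgeR test of the difference. TTR differed by 2.316 on the log2 scale and by -0.03 when WL replicate 10 in GOM was left out. GFRA3 differed by 1.206, and TMEM98 by 1.189.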

How the results depend on the processing

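Of 731 DEGs, leaving out 1 WL library at a time gave 544 to 792 (267 to 407 higher, 263 to 385 lower). Counts differed by over 1.5 times with DESeq2 for genes lower in WL (594, with 358 higher), without the TPM filter for genes higher (689, of 20816 tested), with the PCG share as a covariate (457, 145 higher and 312 lower), with libraries at 90% PCG share or more only (27, 19 higher and 8 lower, 2 WL libraries left), without WL replicates 5, 6 and 8 (224, 131 higher and 93 lower) and without the 18 WG libraries rich in mitochondria-encoded RNA (1166, 630 higher). The last 2 sets, the leaving out of WL replicates 2, 9 and 10 (520 DEGs) and that of the shallowest WG library (985) were chosen after seeing the data. Of the 30 genes with the largest changes all kept their calls with DESeq2, RLE size factors and edgeR's exact test, 26 with the PCG covariate, 28 without the 18 WG libraries, 27 without WL replicates 2, 9 and 10, 24 without WL replicates 5, 6 and 8, and 17 with the replicate number as a block. With 90% PCG share or more 9 kept them and TF turned to -0.39.

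WG and WL pigs are different animals and their shared numbers do not pair them: same-numbered libraries correlated at a median r of -0.09, over 0.1 in 2 of 10. With the number as a block 223 DEGs (93 higher, 130 lower) and 0 variable bins (0 higher, 0 lower, with 23386 of 113298 bins at an unadjusted p below 0.05 in limma) were called. Between depots same-numbered libraries correlated at a median r of 0.558 to 0.637 in WG and of 0.171 to 0.313 in WL. There the block gave 151 genes differing from the other depots in place of 59. Leaving out WL replicate 10 in GOM, chosen after seeing the data, gave 66.

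Variable bins numbered 2414. They were 2007 to 3755 when 1 WL sample was left out (1145 to 2816 higher, 640 to 1171 lower), 3755 without replicate 10. Quantile normalization gave 759 (512 and 247) and a limit of 0.5 gave 12048 (6393 and 5655). The 11 switched bins were 11 to 24 without 1 WL sample and 0 at over 90% of samples. The 316 frequency changes were 148 to 254 without 1 WL sample, where 9 samples cannot give exactly 70 or 30%. Quantile normalization moved the median index difference at higher DEGs from 0.198 to 0.033 and at lower DEGs from 0.107 to -0.062. The cause of the changes in these counts was not tested.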
